A study of Mus musculus with 2 samples.

Results

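The genes described here are interferon-stimulated genes outside the oligoadenylate synthetase (OAS) family together with the sensors, receptors and factors of the pathway. The list held 56 symbols, made up of 34 effectors, 4 chemokines, 7 nucleic acid sensors and adaptors, 6 receptor chains and Janus kinases, and 5 STAT and IRF factors. A symbol was found by its exact name among the probes of the array, and its gene was represented by the brightest probe that was well above background on both arrays. This held for 53 of the 56 symbols, of 20781 genes measured among 37072 named targets in all. Ifitm2, a transmembrane protein that restricts virus entry, had no probe of that name, and Ifitm1 of the same family and the chemokine gene Cxcl9 were not well above background on either array.

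Interferons are secreted alarm proteins that bind receptor chains on the cell surface, activate the Janus kinases JAK1 and TYK2 and, through STAT and IRF transcription factors, switch on the genes known as interferon-stimulated genes. Many of the products block virus replication, others recruit leukocytes, and a number of the sensors and factors of the pathway are themselves induced, so that the response feeds on itself.

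The data were 2 arrays in 1 colour of total RNA from mouse cells, 1 of cells given an agent that the labels call S180 and 1 of cells given DMSO, the solvent used as control. The labels give no cell type, strain, dose, exposure time or identity of S180. Among the 59305 spots that hold gene probes, the share well above background was 61.9% for S180 and 60.6% for DMSO, and no such spot was saturated. All 7 markers of melanocytes that were looked for, from Mitf to Mlana, were measured in the brightest tertile of genes. The epithelial keratin genes Krt8, Krt18 and Krt5 and the endothelial genes Cdh5, Kdr and Tek were not well above background on both arrays. Of the same lists, Epcam, Cdh1 and Krt14 (epithelial) and Pecam1 (endothelial) were measured, all in the dim tertile. Of the fibroblast list, Col1a1 and Col1a2 were in the middle tertile and Pdgfra and Dcn in the dim tertile. Col3a1 and Thy1 were not well above background on both arrays. Markers of other cells were mixed. Measured in the bright tertile were Siglech of the leukocyte list, Itgam of the macrophage list and Tubb3 of the neural list, and in the middle tertile the pan-leukocyte gene Ptprc and the macrophage genes Csf1r and Cd68, while Adgre1, Mrc1, Spi1, Ncr1, S100a8 and Rbfox3 were not well above background on both arrays. Each group is 1 array, so no difference could be set against a spread between replicates and no p-value was computed. A signal is given as a multiple of the 75th percentile of its own array, and a difference is S180 minus DMSO on the log2 scale. The error beside a difference is the SD of a difference between single spots, from probes printed 10 times, taken for each of 3 equal groups of genes by signal. It was 0.042 in the bright tertile (262 probes), 0.072 in the middle tertile (6 probes) and 0.27 in the dim tertile (10 probes). This error covers the array only, and no member was read from more than 1 spot of a probe. The 53 measured members divided into 28 in the bright, 23 in the middle and 2 in the dim tertile.

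The comparison of S180 with DMSO showed 4 members at least 1.5-fold lower in S180, namely the antiviral effector genes Ifit1 and Mx1 and the chemokine genes Ccl5 and Cxcl10. No member was 1.5-fold higher. These 4 were 7.55% of the 53 measured members, beside 1.71% of all measured genes that were as much lower, and 3.08% of all measured genes were 1.5-fold higher. Scaling decides the zero point. When the arrays were scaled on their 8 spike-in probes, the median gene moved to -0.35, 14.3% of all genes were 1.5-fold lower and 0.703% higher, and 12 members were lower. Without any scaling the median gene was at -0.28, the shares were 9.01% and 0.967%, and 8 members were lower. On the spike-in scale small positive differences became negative (Irf1, for example, at -0.023), so each direction given here is relative to the bulk of genes. Across the members the median difference was -0.11, beside 0.0043 for all measured genes, and 35 of 53 lay below the median gene. The sensors, receptors and factors had small differences in both directions.

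**Figure D1:**
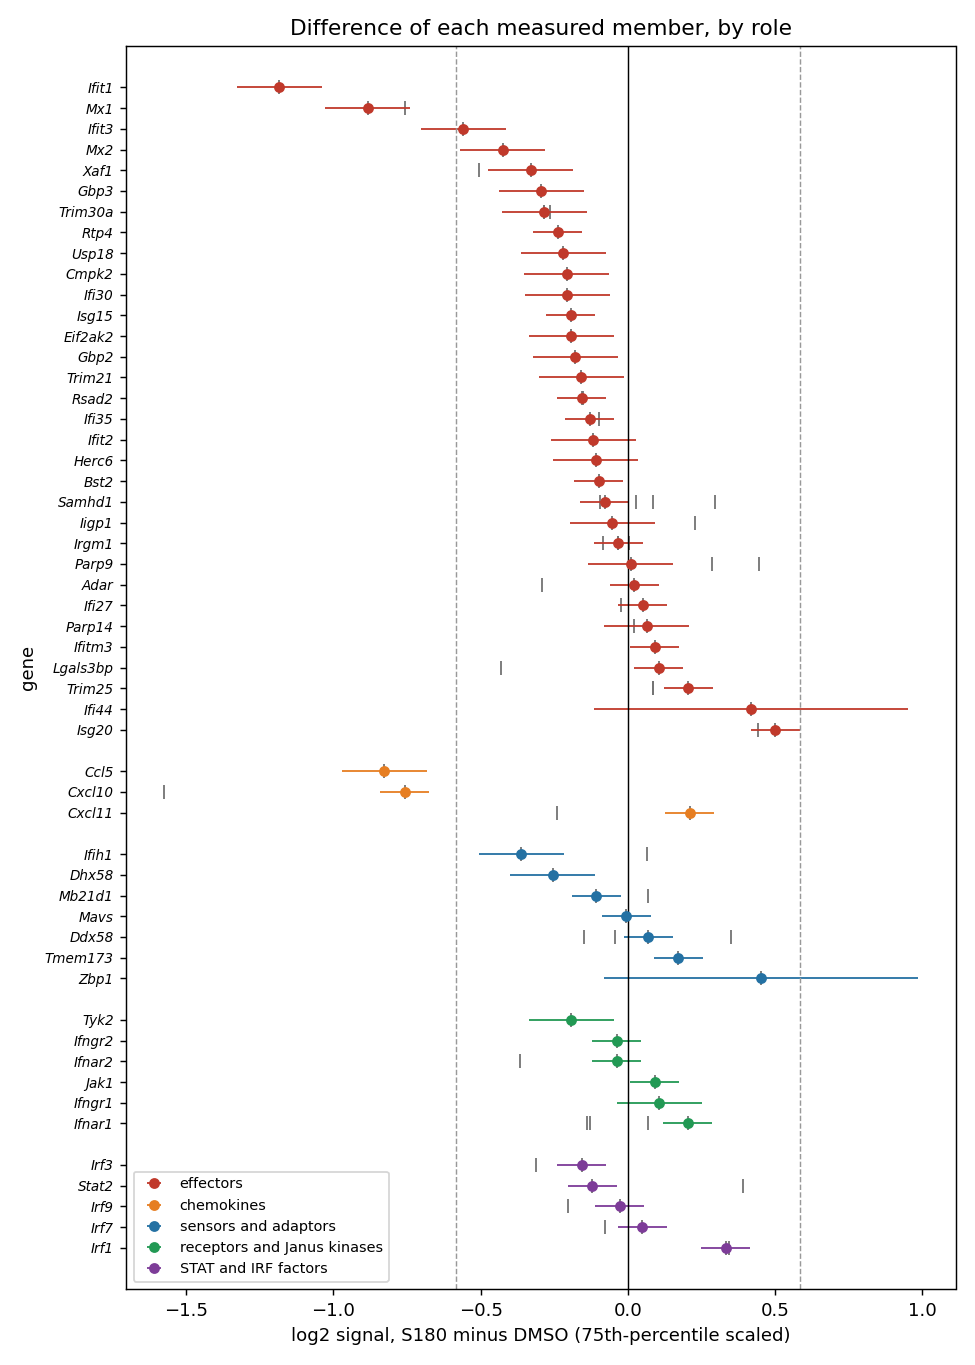
Log2 difference, S180 minus DMSO, of each of the 53 measured members, grouped by role. Points are the brightest probe with bars of 2 spot SDs, grey ticks are all measured probes of the gene, and dashed lines mark 1.5-fold. Ifit1, Mx1, Ccl5 and Cxcl10 lie left of the lower line and no point lies right of the upper line.

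The choice of members did not use promoter sequence. It was a choice of interferon pathway genes, however, made with earlier results of these data known. The core of the interferon-stimulated response element, to which STAT and IRF complexes bind, was searched as GAAA and GAAA separated by any pair of bases, on both strands. The windows were the 250 bases before each start in a RefSeq table of build GRCm38.p6, which held 43 of the 56 members, 1 of them under another symbol. The core was in 10 of 26 effectors (38.5%), namely Ifit1, Ifit3, Isg15, Rsad2, Bst2, Ifitm2, Gbp2, Gbp3, Irgm1 and Trim30a, in Cxcl10 among 2 chemokines and in 1 of 15 sensors, receptors, kinases and factors (6.67%), namely Stat2. It was in 3.46% of all 27025 genes of the table and in 2.98% of its 32851 windows. The gamma-activated site TTCNNNGAA, on both strands, was in 7 of 43 members (16.3%) and in 8.13% of all genes, and a match to it may share bases with a match to the core. The sequences of 5 members with the core are shown 5′ to 3′ on the gene's strand, with core matches on either strand in capitals, because these genes span the range from the lowest effector to one with almost no difference.
Ifit1 (chr19:34640639-34640888, plus strand): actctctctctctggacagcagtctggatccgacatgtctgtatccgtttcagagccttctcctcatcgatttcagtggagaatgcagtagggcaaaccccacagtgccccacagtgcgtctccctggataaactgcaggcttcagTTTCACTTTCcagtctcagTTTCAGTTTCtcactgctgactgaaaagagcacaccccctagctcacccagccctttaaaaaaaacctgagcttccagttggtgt
Ifit3 (chr19:34583279-34583528, plus strand): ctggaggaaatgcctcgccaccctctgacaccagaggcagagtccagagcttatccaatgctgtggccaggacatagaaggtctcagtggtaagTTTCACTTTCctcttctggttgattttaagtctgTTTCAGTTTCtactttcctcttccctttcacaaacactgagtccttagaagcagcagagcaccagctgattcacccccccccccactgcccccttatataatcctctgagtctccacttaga
Isg15 (chr4:156200819-156201068, minus strand): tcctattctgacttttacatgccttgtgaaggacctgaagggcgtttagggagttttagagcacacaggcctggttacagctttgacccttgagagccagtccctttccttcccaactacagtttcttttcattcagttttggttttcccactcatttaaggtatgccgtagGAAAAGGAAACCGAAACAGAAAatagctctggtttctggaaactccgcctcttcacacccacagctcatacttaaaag
Cxcl10 (chr5:92348890-92349139, minus strand): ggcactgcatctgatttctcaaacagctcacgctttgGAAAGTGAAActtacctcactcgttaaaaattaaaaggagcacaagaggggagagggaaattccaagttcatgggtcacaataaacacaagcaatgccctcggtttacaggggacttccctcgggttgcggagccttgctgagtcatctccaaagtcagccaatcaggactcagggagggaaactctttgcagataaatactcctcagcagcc
Irgm1 (chr11:48871421-48871670, minus strand): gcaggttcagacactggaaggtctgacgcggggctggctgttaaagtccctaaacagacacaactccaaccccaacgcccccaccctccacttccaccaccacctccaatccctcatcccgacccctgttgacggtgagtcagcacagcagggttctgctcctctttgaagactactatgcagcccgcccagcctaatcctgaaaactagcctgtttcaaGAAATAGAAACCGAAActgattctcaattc

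The Ifit1 window held 2 matches, beginning 104 and 85 bases before the start, and the Ifit3 window 2, at 156 and 122 bases. In the Isg15 window 3 overlapping matches began at 78, 72 and 66 bases, and in the Irgm1 window 2 overlapping matches at 30 and 24 bases. The 1 match of Cxcl10 began 213 bases before the start, the farthest of these. A match describes the letters of these windows only.

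Effectors are the proteins that carry out the antiviral state. Of the 32 measured, 23 lay below the median gene, with a median difference of -0.14. Ifit1, which binds viral RNA that lacks the host cap and stops its translation, had a signal of 1.43 in S180 and 3.24 in DMSO. That is a difference of -1.18 ± 0.072 (spot SD), or 2.27-fold lower in S180, the 13th lowest of all 20781 measured genes, and Ifit1 was the only member past 2-fold. Over all measured genes 0.168% were 2-fold lower and 0.582% higher, and no member was 2-fold higher. Its only probe matches bases 34723827 to 34723886 of chromosome 19 in the mm9 build, which the scanner files use; exons, introns and UTRs were not annotated here.

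Ifit3, a partner protein of Ifit1, gave 2.58 in S180 and 3.80 in DMSO, a difference of -0.56 ± 0.072 (spot SD), just short of 1.5-fold. Ifit2, of the same family, gave 1.97 and 2.13, a difference of -0.12 that lay within 2 spot SDs of 0. The Ifit3 probe (34663105 to 34663164) and the Ifit2 probe (34650244 to 34650303) lie on chromosome 19 as well. Of these 3 members, Ifit1 and Ifit3 were thus lower by over 2 spot SDs, by unequal amounts, and Ifit2 was not. Ifit3b, which is not a member, gave 0.599 in S180 and 0.866 in DMSO (-0.53 ± 0.072, spot SD).

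Mx1, a dynamin-like GTPase that traps viral nucleocapsids, had a signal of 0.655 in S180 and 1.21 in DMSO, a difference of -0.88 ± 0.072 (spot SD), or 1.85-fold lower. That probe matches chromosome 16 from 97668644 to 97668703, and a dimmer probe that starts at the same base gave -0.76. Mx2, its paralog, gave 0.771 in S180 and 1.04 in DMSO (-0.43), so that both Mx genes were lower in S180. Xaf1, an interferon-induced antagonist of apoptosis inhibitors, gave 2.37 and 2.97 (-0.33), with -0.51 from its other measured probe. With a looser limit of 0.32 on the log2 scale, 5 effectors were lower (Ifit1, Ifit3, Mx1, Mx2 and Xaf1) and 2 higher (Isg20 and Ifi44). By that limit 8 members (15.1%) were lower and 4 (7.55%) higher, beside 8.03% and 11.6% of all measured genes.

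A broad group of effectors was lower by less. Gbp3, a guanylate-binding GTPase, differed by -0.29 and its neighbour Gbp2 by -0.18. Trim30a, a ubiquitin ligase of the TRIM family, differed by -0.28, and its 3 probes gave values from -0.29 to -0.26. Rtp4 differed by -0.24, Cmpk2, a mitochondrial nucleotide kinase, by -0.21, and Rsad2 (viperin), which makes a chain-terminating nucleotide, by -0.16 on its brightest probe and -0.15 on the other. Usp18, which removes the ubiquitin-like ISG15 from proteins and dampens the interferon receptor, differed by -0.22, and Isg15 itself gave 25.6 in S180 and 29.3 in DMSO (-0.19). Ifi30, a lysosomal thiol reductase, differed by -0.21, Eif2ak2 (PKR), a kinase that halts translation, by -0.19, and Trim21, an intracellular antibody receptor, by -0.16. Ifi35 differed by -0.13 and Bst2 (tetherin), which holds budding viruses at the membrane, by -0.099. Each of the genes in this paragraph lay beyond 2 spot SDs of 0. Over all genes of the bright tertile, 26.1% were lower by over 2 spot SDs and 32.8% higher. In the middle tertile these shares were 29.4% and 22.8%.

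Other effectors were not lower by over 2 spot SDs. Herc6 (-0.11), Samhd1, a dNTP hydrolase (-0.078), Iigp1 (-0.053) and Irgm1 (-0.031), both immunity-related GTPases, Parp9 (0.0095), the RNA-editing gene Adar (0.021), Ifi27 (0.051) and Parp14 (0.064) all lay within 2 spot SDs of 0 on their brightest probes. Herc6 was no nearer 0 than Bst2 (-0.099), but the spot SD is 0.072 in its middle tertile and 0.042 in the bright tertile of Bst2. Dimmer probes gave -0.29 for Adar, 0.23 for Iigp1, up to 0.45 for Parp9 and up to 0.30 for Samhd1. Ifitm3 (0.091), which blocks fusion of viruses in endosomes, and Lgals3bp (0.10), a secreted glycoprotein, were just beyond that limit, though a second Lgals3bp probe gave -0.43. Trim25, a ubiquitin ligase that acts on the sensor RIG-I, was higher in S180 at 0.21, with 0.085 to 0.21 over its 3 probes. Isg20, an exonuclease that degrades RNA, had a signal of 5.93 in S180 and 4.19 in DMSO. Its difference of 0.50 ± 0.042 (spot SD), or 1.41-fold, was the highest among the members, and its other probe gave 0.44. Ifi44 gave 0.42 in the dim tertile, where the spot SD is 0.27.

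The chemokines attract lymphocytes, and the 3 measured here differed in sign. Cxcl10, a ligand of the receptor CXCR3 and a standard readout of interferon signalling, had a signal of 23.1 in S180 and 39.1 in DMSO. Its difference of -0.76 ± 0.042 (spot SD), or 1.69-fold, was the lowest of all 6927 genes in the bright tertile, of which 7 (0.101%) were 1.5-fold lower. A second Cxcl10 probe, with a signal of 0.138 in S180 and 0.411 in DMSO, gave -1.58. Ccl5, a chemokine that attracts T cells, gave 0.888 in S180 and 1.57 in DMSO, a difference of -0.83 ± 0.072 (spot SD), or 1.77-fold lower. Cxcl11, another CXCR3 ligand, gave 97.8 in S180 and 84.5 in DMSO, or 0.21 higher, but its other probe gave -0.24, so that its direction depended on the probe. The brightest probes of Cxcl10 (92775781 to 92775840) and Cxcl11 (92788567 to 92788626) lie close together on chromosome 5, and that of Ccl5 on chromosome 11 from 83339296 to 83339355.

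**Figure D2:**
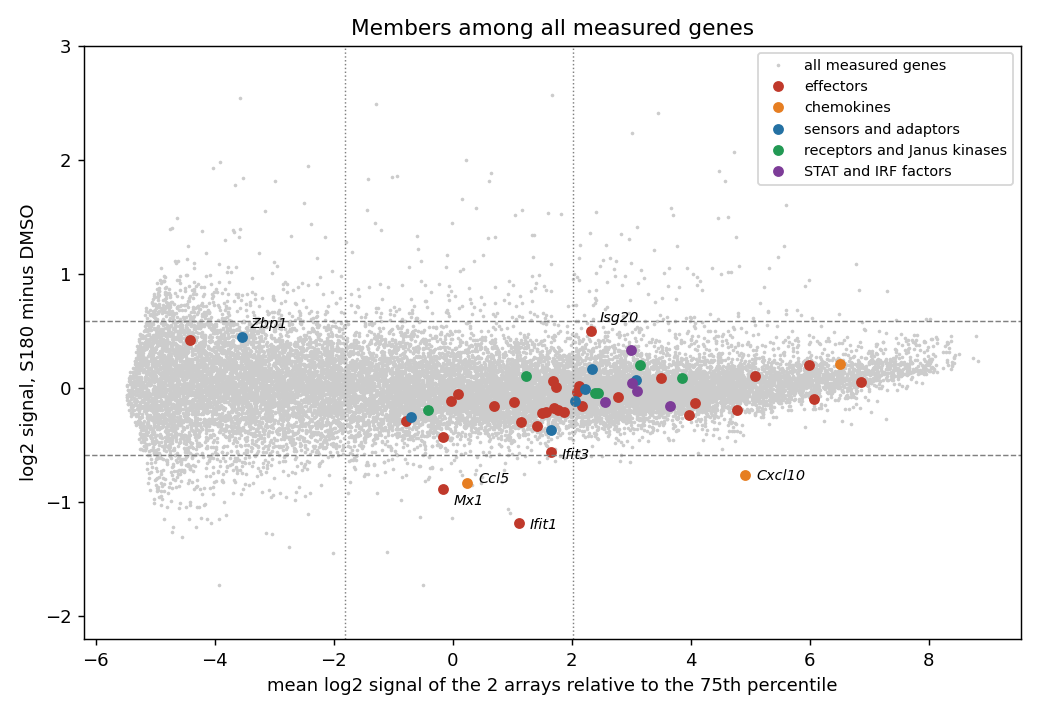
Log2 difference, S180 minus DMSO, against the mean log2 signal of the 2 arrays for all 20781 measured genes (grey) and for the members by role (coloured). Dashed lines mark 1.5-fold and dotted lines the borders of the tertiles of signal, and Cxcl10, at -0.76, lies below every other gene of the bright tertile.

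The sensors detect viral RNA or stray DNA inside the cell. Of the 7, none was 1.5-fold apart and the median difference was -0.0052. Ifih1 (MDA5), a helicase that senses long double-stranded RNA, gave 2.77 in S180 and 3.56 in DMSO (-0.36 ± 0.072, spot SD), while a dimmer probe gave 0.065. Dhx58 (LGP2), a helicase that tunes MDA5, gave 0.560 and 0.669 (-0.25). Ddx58 (RIG-I), a sensor of RNA ends, gave 8.68 and 8.26 (0.070), and its 4 probes ranged from -0.15 to 0.35. Ifih1 and Dhx58 were therefore lower beyond 2 spot SDs on their brightest probes, whereas Ddx58 lay within them. Mb21d1 (cGAS), the DNA sensor, differed by -0.11, but a dimmer probe gave 0.069. Tmem173 (STING), the downstream adaptor of cGAS, differed by 0.17, and Mavs, the mitochondrial adaptor of the RNA sensors, by -0.0052. Zbp1, a sensor of left-handed nucleic acids, was dim, at 0.100 in S180 and 0.073 in DMSO (0.45, within 2 spot SDs of 0).

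The receptor chains and Janus kinases carry the interferon signal to the nucleus, and none of the 6 was apart by 0.32 or more. Ifnar1, a chain of the type I receptor, gave 9.54 in S180 and 8.28 in DMSO (0.20), but its 4 probes ranged from -0.14 to 0.20. Ifnar2, the other chain, differed by -0.038, with -0.37 from its second probe. Of the chains of the interferon-gamma receptor, Ifngr1 gave 2.43 in S180 and 2.26 in DMSO (0.11), and Ifngr2 differed by -0.038, both within 2 spot SDs of 0. The kinase gene Tyk2 gave 0.698 in S180 and 0.797 in DMSO (-0.19), while Jak1 differed by 0.092. The receptor chains and kinases thus had small differences of both signs. Of the 5 factors, Irf1, itself an early interferon target, gave 8.92 in S180 and 7.09 in DMSO (0.33 ± 0.042, spot SD), with 0.34 from its other probe. Irf3, the factor downstream of the sensors, gave 11.9 in S180 and 13.2 in DMSO (-0.16), with -0.31 from its other probe. Stat2, part of the complex that binds the response element, gave 5.64 in S180 and 6.13 in DMSO (-0.12), but a dimmer probe gave 0.39, so its direction depended on the probe. Irf9 (-0.027), the partner of STAT2, and Irf7 (0.049), the main amplifier of type I interferon, lay within 2 spot SDs of 0 on their brightest probes. The other probes gave -0.20 for Irf9 and -0.077 for Irf7. Irf1 was the 1 factor apart by 0.32 or more, and it was higher in S180.

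The effectors had a median of -0.14 and the 18 sensors, receptors, kinases and factors together a median of -0.016, a difference between the medians of -0.13. The split by signal was added after the data were seen. The groups differ in signal, since 13 of 32 effectors but 13 of 18 of the other genes were in the bright tertile, so the comparison was repeated within tertiles. In the bright tertile the effectors had a median of -0.031 (7 of 13 below the median gene) and the sensors, receptors, kinases and factors one of -0.0052 (7 of 13), beside 0.013 for all genes there. In the middle tertile the 18 effectors had a median of -0.21, and the 4 sensors, receptors and kinases in it a median of -0.22, beside -0.034 for all genes there. These medians rest on few genes and on the choice of probe. With the mean of all measured probes in place of the brightest, the bright-tertile medians were -0.099 for the effectors, -0.0052 for the upstream genes and 0.014 for all genes, and the middle-tertile medians -0.21, -0.17 and -0.016. Lower by over 2 spot SDs were 13 of the 18 middle-tertile effectors, and none was as much higher, where the shares over all genes of that tertile were 29.4% lower and 22.8% higher. Of the 4 sensors, receptors and kinases there, 3 were as much lower and 0 higher. In the bright tertile 5 of 13 effectors were lower and 4 higher by that limit, beside 26.1% and 32.8% of all genes there. Of the 13 sensors, receptors, kinases and factors there, 3 were lower and 4 higher. At 1.5-fold the bright tertile held 1 lower member (Cxcl10) and no higher one, beside 0.101% and 1.66% of all genes there, and past 0.32 it held 1 lower and 2 higher, beside 1.88% and 6.19%. The middle tertile held 3 members 1.5-fold lower of 23, beside 1.15% of its genes. Over all 53 members 26 were lower and 9 higher by over 2 spot SDs, beside 20.2% and 21.0% of all measured genes.

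**Figure D3:**
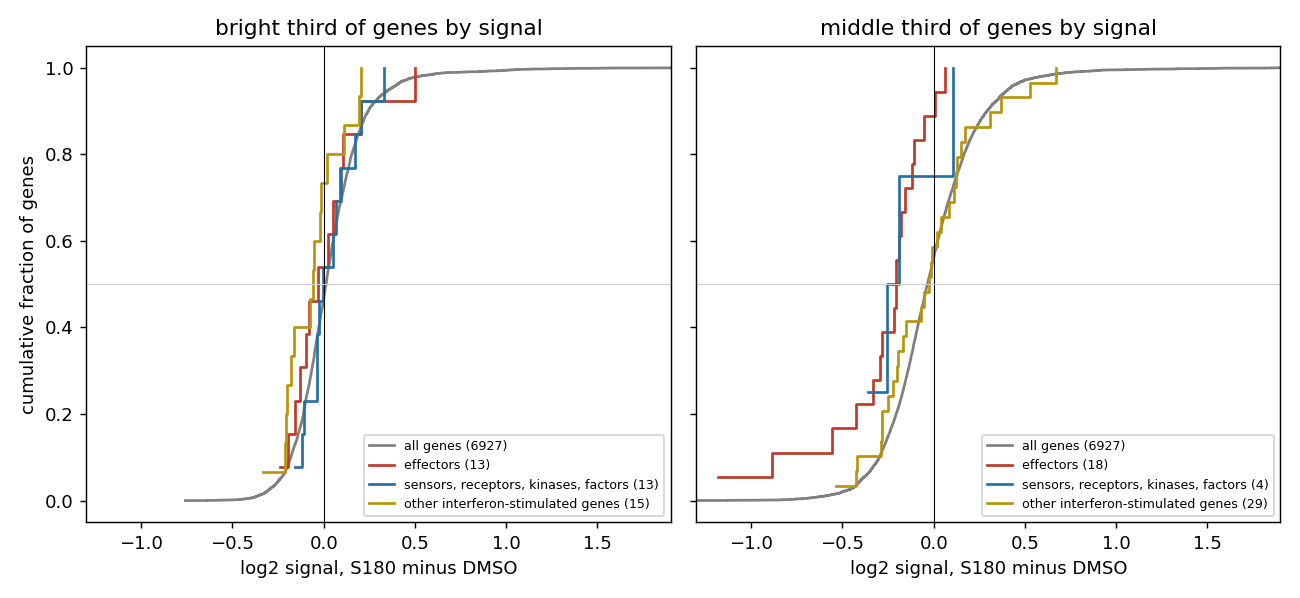
Cumulative fraction of genes by log2 difference, S180 minus DMSO, in the bright tertile (left) and the middle tertile (right) of genes by signal; the number of genes is in the legend. In the middle tertile the effectors (median -0.21) run left of all genes (median -0.034), and in the bright tertile the medians lie closer (-0.031 and 0.013), though the effectors there are at -0.099 with the mean of all measured probes. The other interferon-stimulated genes, not among the members, have medians of -0.028 in the middle and -0.060 in the bright tertile.

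Of the 27 members with 2 or more measured probes, all probes went one way in 14. The 101 member probes included 92 well above background on both arrays. Among the 4 members past 1.5-fold, Mx1 and Cxcl10 had 2 measured probes each, all lower in S180, while Ifit1 and Ccl5 rested on 1 probe. Ifit1, Mx1, Cxcl10 and Ccl5 were 1.5-fold lower in every processing setting that kept them. Relative to the median gene Irf1 was above 0 in all 11 settings and Ifit3 and Ifih1 below 0 in all 11.

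**Figure D4:**
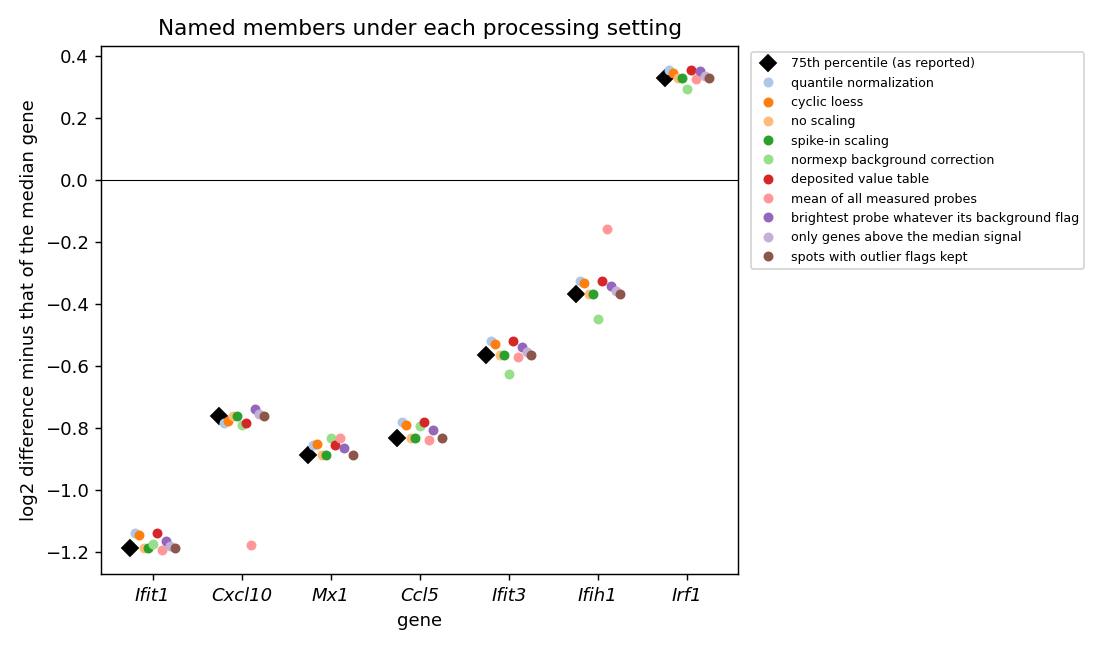
Log2 difference minus that of the median gene for 7 members under each of the 11 processing settings (black diamonds, as reported; coloured points, alternatives). Ifit1, Cxcl10, Mx1, Ccl5, Ifit3 and Ifih1 lie below 0 in each setting that kept them and Irf1 above 0, and Cxcl10 reaches -1.18 with the mean of its probes.

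Of the measured members, 11 of 11 with the response element core in their window and 17 of 29 without it had differences below 0 on their brightest probes, beside 49.1% of all measured genes. Among the effectors these counts were 9 of 9 and 9 of 15. By over 2 spot SDs 10 of the 11 with the core were lower, Irgm1 being the exception, and 10 of the 29 without it. Of all measured genes 20.2% were as much lower, with 26.1% in the bright and 29.4% in the middle tertile. The 11 include Ifit1, Ifit3, Isg15, Cxcl10 and Irgm1, whose sequences are shown. A dimmer probe was above 0 for Stat2 (0.39), as was 1 of 4 Irgm1 probes (0.0037). The brightest probes of the 11 ranged from -1.18 to -0.031 with a median of -0.19, whereas the 29 measured members without it ranged from -0.36 to 0.50 with a median of -0.038. Within the effectors the medians were -0.19 (9 with the core) and -0.11 (15 without). These are the same differences as described above, divided by promoter, and so are not separate evidence. Genes with the core outside the list were not compared. Members with no window in the table ranged from Mx1 (-0.88) and Ccl5 (-0.83), both 1.5-fold lower, to Zbp1 (0.45). Of the others with no window, Mx2, Dhx58, Rtp4, Usp18 and Iigp1 were below 0 and Cxcl11, Tmem173, Parp14, Ifi27 and Parp9 above 0.

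Other genes of the pathway, not among the 56, were read from further lists. Of 70 further interferon-stimulated genes 53 were measured, with a median of -0.070 and 36 below the median gene. In the middle tertile 29 of them had a median of -0.028, beside -0.034 for all genes there. Of these 29, 17 (58.6%) lay below the median gene, beside 56.9% of all genes there. In the bright tertile 15 had a median of -0.060, beside 0.013 for all genes there. Of these 15, 11 (73.3%) lay below the median gene, beside 47.7%. At 1.5-fold 3 of the 53 were lower (5.66%, beside 1.71% of all measured genes). These were Trim5, a restriction factor of retrovirus capsids (-0.83), the guanylate-binding protein gene Gbp6 (-0.81) and Treml2 (-0.61), all in the dim tertile with a spot SD of 0.27, where 3.88% of all genes were as much lower. Ifi205, of the interferon-inducible p200 family, was 1.59-fold higher (0.67). It was the 1 gene of the 53 at least 1.5-fold higher (1.89%, beside 3.08% of all measured genes). Of 33 upstream genes of the pathway 31 were measured with a median of 0.066. At 1.5-fold 1 was lower and 1 higher (3.23% each), beside 1.71% and 3.08% of all measured genes. Tlr3, an endosomal receptor of double-stranded RNA, was 1.55-fold lower (-0.63) with 0.37 from its other probe. Tlr7, a receptor of single-stranded RNA, was 1.88-fold higher (0.91). Both were in the dim tertile. Of the interferon and inflammatory cytokine genes, Ifnb1, Ifng, Ifna2, Ifna4, Ifne, Il6 and Il1b were not well above background on both arrays, Ifnz and Ifnl2 had no probe of that name, and 5 of 14 were measured, all dim and within 2 spot SDs of 0.

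Markers of leukocytes and macrophages were set beside these values, since such cells express many of the same genes. The 5 measured of 8 leukocyte markers summed to 26.5 in S180 and 23.6 in DMSO, and the 5 measured of 7 macrophage markers to 8.82 and 7.55, but 1 probe made up most of each sum, Siglech at 23.7 and 20.7 and Itgam at 7.67 and 6.40. Without these the sums were 2.80 in S180 and 2.95 in DMSO for leukocytes and 1.15 on both arrays for macrophages. Ptprc, the common leukocyte antigen, gave 2.30 in S180 and 2.53 in DMSO (-0.13). The median difference was 0.20 for the leukocyte list, with 1 of 5 genes below the median gene, and -0.062 for the macrophage list, with 3 of 5 below it. Of the macrophage genes, Csf1r differed by 0.22, Cd68 by -0.062, and the dim Cd14 and Lyz2 by -0.33 and -0.84. The 4 measured fibroblast markers summed to 2.25 in S180 and 3.19 in DMSO, and to 1.21 and 1.35 without Col1a2. Col1a2, a fibrillar collagen chain, gave 1.04 and 1.84 (-0.83), with -0.33 from its other measured probe. Col1a1 differed by -0.017, and the dim Pdgfra and Dcn by -0.48 and -0.38. The melanocyte markers summed to 1300 in S180 and 1161 in DMSO. The part of these markers in the lower interferon-stimulated genes was not tested. In bulk RNA fewer cells of a type and less RNA per cell cannot be told apart.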

How the data were processed

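Each sample was hybridised to 1 Agilent mouse array as Cy3-labelled cRNA, and both arrays were read in the same scan. The deposited spot intensity values came from Agilent Feature Extraction 10.7.1.1, per the file headers and the submitters' processing notes, and are background-corrected within each array. The authors' deposited table is on a log2 scale, and its normalization is not stated; 99.8% (S180) and 99.7% (DMSO) of its 56745 probes lay within 0.01 of quantile-normalised log2 processed intensities. Its values gave 1 of the alternatives.

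Spots of controls or with an outlier flag (120 on the S180 and 195 on the DMSO array) were dropped, spots of a probe were averaged as log2 values, and the array's 75th percentile was subtracted. Tertiles of signal divide the measured genes by their mean over both arrays. Genes kept the names in the files. Groups followed the agent label. Alternatives used Python 3.11.15 and limma 3.58.1 (quantile, cyclic loess, normexp with offset 50). The step from probes to gene differences was checked on simulated arrays with known differences and the same noise at all signals. That check covers neither the choice of members nor variation between replicates. The members and lists were chosen with earlier results of these data known. Values are given for each member 1.5-fold apart and the 3 furthest of each role, the others more briefly; other pathway genes are named where they were 1.5-fold apart, and further genes were chosen after their values were seen.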

Additional observations from a re-analysis of the deposited data

How the results depend on the processing

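No paired analysis was possible because each group holds 1 array. Among 10 alternatives to the scaling, background correction, probe choice and filters, the count of members at least 1.5-fold lower was 8 without scaling, 12 with spike-in scaling, where the median gene lay at -0.35, and 2 when genes were limited to those above the median signal, since Mx1 and Ccl5 then fall away. The shares of all genes as much lower were 9.01%, 14.3% and 0.298% in these settings. The count of members lower was 8 at a log2 limit of 0.32 and 1 at 2-fold, beside 8.03% and 0.168% of all genes. The count of members higher was 1 with the brightest probe whatever its background flag (Ifitm1, not well above background) and 4 at a limit of 0.32. The count of other interferon-stimulated genes 1.5-fold lower was 8 without scaling, 13 with spike-in scaling, 5 with background flags ignored, 0 with normexp correction and 0 above the median signal, where the 3 genes are not kept, and 8 and 0 at limits of 0.32 and 2-fold. Beside these counts the shares of all genes were 9.01%, 14.3%, 5.57%, 0.284%, 0.298%, 8.03% and 0.168%, in the same order. The median of the factors minus that of all genes was -0.11 with normexp correction in place of -0.031, that of the receptors and kinases 0.095 above the median signal in place of 0.023, and that of the bright-tertile effectors minus all bright genes -0.11 with the mean of all measured probes in place of -0.045; the cause was not tested. The split by tertiles was added after seeing the data. Signal over background limits the dim genes, whose spot SD was 0.27, and 1 array a group limits all of them.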
